A study of Mus musculus with 10 samples.

Results

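Expression of the aminoacyl-tRNA synthetase genes was examined in 10 mouse livers, 5 wild-type and 5 Ndrg3 LKO, that had been sequenced to follow gene expression after loss of *Ndrg3* in the liver. The members were the rows of the count tables whose gene symbol named a synthetase: 36 of the 24052 symbols listed, of which 20 encode cytosolic and 16 encode mitochondrial enzymes. The mice were C57BL/6 by the labels, from a line backcrossed to C57BL/6N by the methods, and had free access to food. The Ndrg3 LKO mice lacked exon 4 of *Ndrg3*, which Cre recombinase had removed under the albumin gene promoter, so the deletion was directed to the cells that use this promoter, chiefly hepatocytes. Wild-type littermates served as controls. The study used males, which were 8 to 10 weeks old by its methods and 10 to 12 weeks old by a legend. The labels number the livers of each group from 1 to 5 without saying which came from one litter, so the p-values measure the spread between these libraries only. All 5 Ndrg3 LKO livers were used here, whereas a legend for the expression heatmap counts 4, without naming the one left out.

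Aminoacyl-tRNA synthetases join each amino acid to its tRNA and thereby supply the ribosome with charged tRNAs. Translation in the cytosol and translation in the mitochondrion use largely separate enzymes, all of them encoded in the nucleus, and the mitochondrial enzymes are imported. Lysyl-tRNA and glycyl-tRNA synthetases serve both compartments from one gene each. Several cytosolic enzymes are held together in the multisynthetase complex by the scaffold proteins encoded by *Aimp1*, *Aimp2* and *Eef1e1*. Mitochondria of mammals have no glutaminyl-tRNA synthetase of their own: the glutamyl-tRNA synthetase *Ears2* charges the glutamine tRNA with glutamate, and an amidotransferase then converts the product. Many cytosolic synthetase genes are known targets of the transcription factor ATF4, which cells use when amino acids are scarce.

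The wild-type libraries held 20872262 to 24747870 counts and the Ndrg3 LKO libraries 23474693 to 30450057. Levels are given below as CPM, the counts scaled to a common library size, with library sizes adjusted by TMM. The deleted gene, *Ndrg3* (chr2:156753081-156817792, minus strand of mm9), had 17.8, 17.7, 15.9, 19.1 and 21.9 CPM in wild-type replicates 1 to 5 and 7.07, 8.05, 9.16, 7.78 and 8.25 CPM in Ndrg3 LKO replicates 1 to 5. The highest Ndrg3 LKO liver stood well under the lowest wild-type liver (exact 2-sided permutation p = 0.00794, the lowest value possible with 5 against 5). The counts cover the whole gene, so the deleted exon was not measured by itself. Ndrg3 LKO replicate 5 stood apart from the other Ndrg3 LKO livers. On the first principal component of all genes tested (68.7% of the variance), it lay at 14.1, Ndrg3 LKO replicates 1 to 4 between 51.1 and 56.6, and the wild-type livers between -49.9 and -43.0. The 20 most abundant genes took 26.6% of its counts, against 16.3% to 17.3% in the other Ndrg3 LKO livers and 26.2% to 28.0% in the wild-type livers. With TMM scaling, counts of genes that passed and log2 fold changes of the passing genes described are therefore given with and without this liver.

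All 36 synthetase genes passed the filter on low counts and were tested with the other genes, and 15 rose and 4 fell in Ndrg3 LKO livers at an adjusted p under 0.05. The genes that rose included the cytosolic *Yars*, *Sars*, *Vars* and *Rars* and the mitochondrial *Ears2*, with log2 fold changes between 0.63 and 0.91. Those that fell were *Tars*, *Qars*, *Nars2* and *Lars2*. With scaling to library size *Qars* changed sign and *Tars* did not pass, and with quantile normalization in limma *Lars2* did not pass. Together the genes that passed with TMM scaling were 52.8% of the members. Of all 11208 genes tested 48.6% passed, 25.6% higher and 23% lower, so the share of members that passed was near that of all genes. Of the 20 cytosolic genes, 10 rose and 2 fell, and their median log2 fold change was 0.40. Of the 16 mitochondrial genes, 5 rose and 2 fell, with a median of 0.18. The median over all genes tested was 0.03. Without Ndrg3 LKO replicate 5, 14 cytosolic genes rose and 2 fell (median 0.51), and 6 mitochondrial genes rose and 3 fell (median 0.31), against 54.5% of all genes, 28% higher and 26.5% lower. The groups did not overlap for 6 cytosolic genes with higher and 2 with lower levels, and for 3 mitochondrial genes with higher and 2 with lower levels. Across all genes 31.5% did not overlap, 15.6% being higher and 15.9% lower.

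**Figure D1:**
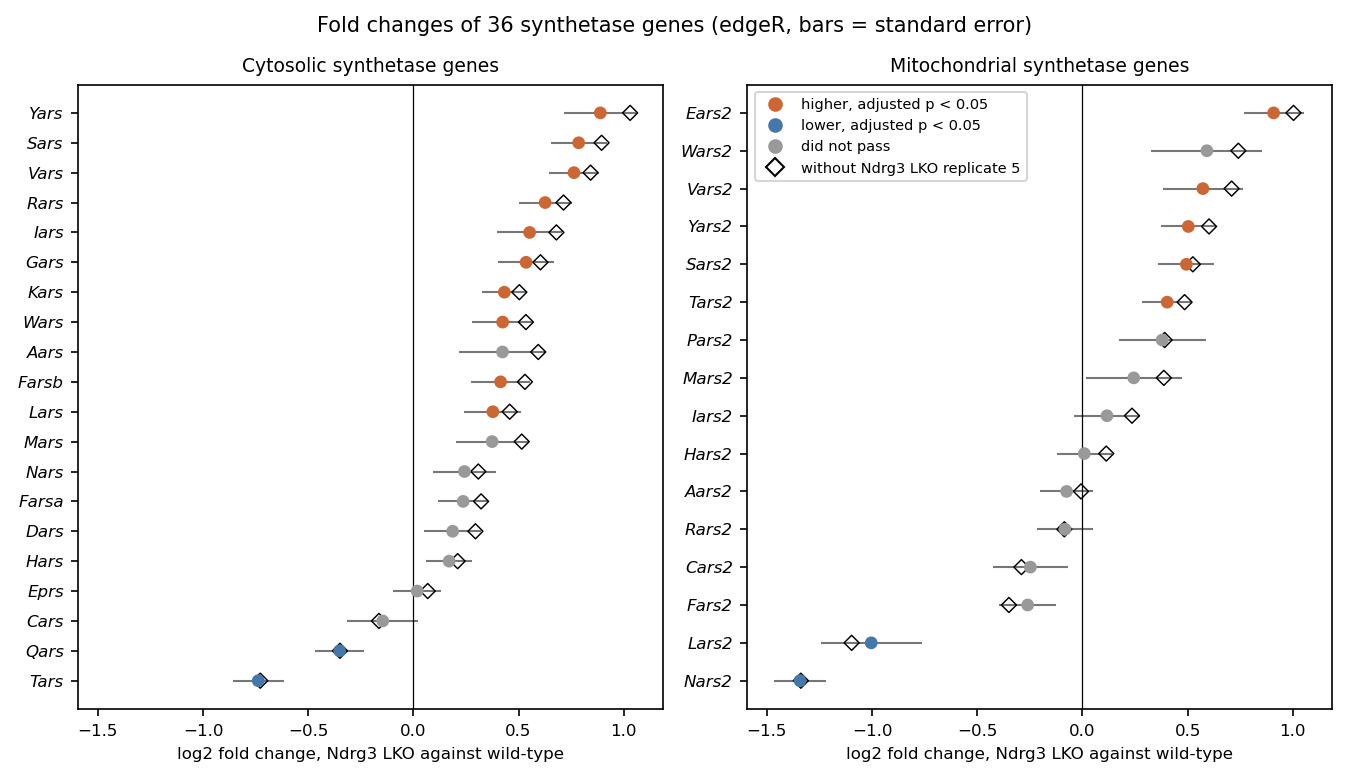
Log2 fold changes of the 20 cytosolic (left) and 16 mitochondrial (right) synthetase genes in Ndrg3 LKO against wild-type livers (n = 5 per group, bars are standard errors), with open diamonds for the fit without Ndrg3 LKO replicate 5. Most cytosolic points lie right of 0, from *Yars* at 0.89 to *Tars* at -0.74, and the mitochondrial points run from *Ears2* at 0.91 to *Nars2* at -1.34.

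The direction of some genes depended on the scaling of the libraries. TMM, median-of-ratios and library-size scaling placed the median of all genes at 0.03, 0.03 and 0.56. With library size alone, 17 cytosolic genes were called higher and 0 lower, and 11 mitochondrial genes were called higher and 2 lower, where 51.9% of all genes were called higher and 9.01% lower. Relative to the median of all genes, the cytosolic median was then 0.39 and the mitochondrial median 0.18. *Qars* changed sign (0.17), and *Tars* kept its sign without passing (-0.21, edgeR adjusted p = 0.211).

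Markers of other cell types and of hepatocytes moved between the groups as well. Of 12 hepatocyte markers, 8 fell and 0 rose (9 and 0 without Ndrg3 LKO replicate 5, 8 and 1 with scaling to library size). Their summed level, led by *Alb* (albumin), was 195362, 150600.0, 168641, 157292 and 155343 CPM in wild-type replicates 1 to 5 and 48229, 42054, 42218, 40038 and 158586 CPM in Ndrg3 LKO replicates 1 to 5. Replicate 5 of the Ndrg3 LKO livers thus lay among the wild-type livers for this sum, and the other 4 lay far below. In bulk RNA, fewer cells of a type and less RNA per cell cannot be told apart. All 11 macrophage markers tested rose, and their sum, led by *Clec4f*, was 134, 361, 159.6, 178 and 236 CPM in wild-type replicates 1 to 5 and 937, 291, 885, 501 and 416 CPM in Ndrg3 LKO replicates 1 to 5. The filter of 1 CPM in 5 livers was reached through the Ndrg3 LKO livers alone by the endothelial marker *Lyve1* and the stellate cell and fibroblast markers *Col1a1* and *Acta2*, which are left out of the counts that follow. Of the other 7 endothelial markers 6 rose, and the sum of all 8, led by *Ehd3*, was 82.3, 75.4, 87.6, 98.5 and 89.5 CPM in wild-type replicates 1 to 5 and 186, 162, 191, 164 and 142 CPM in Ndrg3 LKO replicates 1 to 5. Endothelial sums of the groups did not overlap, while the macrophage sum of Ndrg3 LKO replicate 2 lay inside the wild-type range. Of the other 7 stellate cell and fibroblast markers 5 rose, with a sum of all 9, led by *Dcn*, of 165, 131, 167, 116 and 182 CPM in wild-type replicates 1 to 5 and 328, 250.3, 314, 306 and 263 CPM in Ndrg3 LKO replicates 1 to 5. The macrophage, endothelial and stellate counts were the same without Ndrg3 LKO replicate 5, and 11, 7 and 6 rose with scaling to library size. Of 7 proliferation genes tested, 6 reached the filter through the Ndrg3 LKO livers alone which favours genes that are higher there, and no count is drawn from them. The sum of all 8 listed, led by *Cdk1*, was 6.51, 8.45, 9.58, 8.59 and 9.11 CPM in wild-type replicates 1 to 5 and 88.9, 21.5, 17.99, 60.4 and 114 CPM in Ndrg3 LKO replicates 1 to 5. For the stellate and the proliferation sum every Ndrg3 LKO liver lay above every wild-type liver. *Alas2*, the erythroid enzyme of haem synthesis and the most abundant of 5 erythroid markers, fell (log2 fold change -3.19 ± 0.44, adjusted p = 0.000201, and -3.74 without replicate 5), the summed level being 140.8 to 164.8 CPM in wild-type and 4.43 to 39.4 CPM in Ndrg3 LKO livers, and *Hbb-b1* and *Hba-a1* were listed at 0 in every liver. Of 5 biliary markers tested, *Krt19* and *Epcam* reached the filter through the Ndrg3 LKO livers alone and are not counted. Of the other 3, *Spp1* rose (1.27, and 1.48 without replicate 5) and *Sox9* fell (-0.86, and -0.76 without replicate 5), but with scaling to library size *Sox9* did not pass (-0.29, adjusted p = 0.374) and *Krt7* passed as higher. The biliary sums were 38.5 to 71.7 CPM in wild-type and 51.0 to 219.7 CPM in Ndrg3 LKO livers. Of 2 B and plasma cell markers tested, *Igj* reached the filter through the Ndrg3 LKO livers alone, and *Xbp1*, which hepatocytes also use, fell (-1.13, and -1.23 without replicate 5). None of the 9 T and NK cell markers and 6 neutrophil markers listed reached the level needed for testing; their sums were at most 10.4 and 14.7 CPM. The part of these shifts in the synthetase results was not tested.

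Per kilobase of annotated exon, cytosolic synthetase genes stood above mitochondrial ones in the wild-type livers, with a median of 14.8 against 5.34 CPM per kb. The most abundant cytosolic gene was *Tars*, the threonyl-tRNA synthetase, at 52.0 CPM per kb (range 43.0 to 57.2), followed by the asparaginyl-tRNA synthetase *Nars* at 48.0 (range 41.4 to 54.6). The ranges of these genes overlapped. In Ndrg3 LKO livers, *Nars* stood at 56.8 and *Tars* at 31.2 CPM per kb. The lowest cytosolic gene was *Wars*, for tryptophan, at 4.62 CPM per kb. Among the mitochondrial genes *Lars2*, for leucine, stood at 931 CPM per kb (range 631 to 1374 over the wild-type livers), far above *Fars2*, for phenylalanine, at 19.2, and *Pars2*, for proline, was lowest at 0.575. The level of *Lars2* is uncertain, because part of its transcript has copies elsewhere in the genome, as described below. Within the wild-type livers the coefficient of variation ran from 2.68% for *Eprs* to 29.7% for *Lars2*, with a median of 11.2% over the 36 genes. The exon length is that of all annotated transcripts together, so genes with long alternative exons, such as *Aars* (9.282 kb), appear lower than per transcript.

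**Figure D2:**
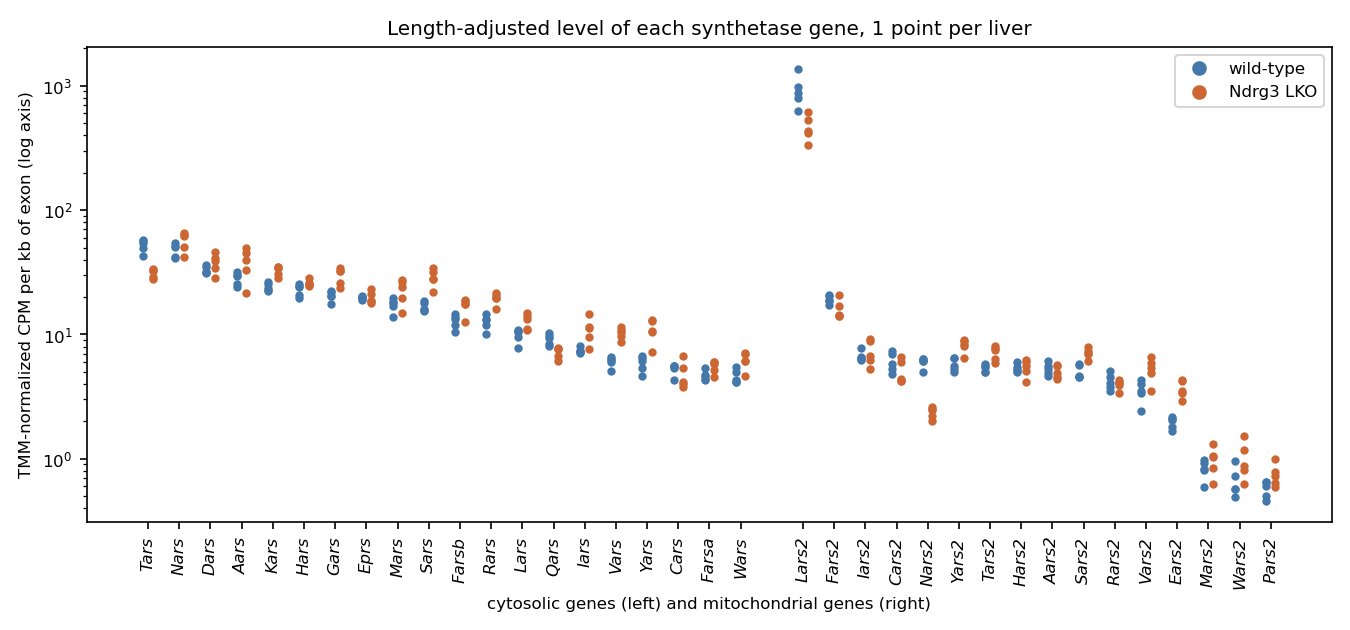
TMM-normalized CPM per kb of exon on a log axis for each synthetase gene, 1 point per liver, wild-type in blue and Ndrg3 LKO in orange, ordered within compartment by the wild-type mean. *Tars* and *Nars* lead the cytosolic genes at 52.0 and 48.0, *Lars2* stands at 931, and the other mitochondrial genes stand at 19.2 or lower. The counts of *Lars2* are uncertain.

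Of the cytosolic genes, *Yars* had the largest increase. *Yars* (chr4:128867004-128896851, plus strand), which encodes the tyrosyl-tRNA synthetase, had 27.6, 39.9, 36.7, 31.8 and 38.4 CPM in wild-type replicates 1 to 5 and 75.9, 77.9, 63.5, 62.7 and 42.6 CPM in Ndrg3 LKO replicates 1 to 5. All Ndrg3 LKO livers lay above all wild-type livers, and replicate 5 was nearest to them. The log2 fold change was 0.89 ± 0.17 (SE, n = 5 per group), edgeR adjusted p = 0.00146, and 1.03 ± 0.14 with adjusted p = 7.66e-05 without Ndrg3 LKO replicate 5. Errors of all log2 fold changes are standard errors from the fit. *Sars* (chr3:108227783-108248127, minus strand), for serine, had 58.1, 67.3, 57.96, 56.9 and 65.2 CPM in wild-type replicates 1 to 5 and 117, 125, 102, 103 and 79.9 CPM in Ndrg3 LKO replicates 1 to 5. Here too the groups did not overlap, with replicate 5 the lowest of the Ndrg3 LKO livers (log2 fold change 0.79 ± 0.13, edgeR adjusted p = 0.000698; 0.89 ± 0.11 with adjusted p = 5.67e-05 without it). *Vars* (chr17:35137932-35153267, plus strand), for valine, had 35.4, 33.7, 28.4, 36.8 and 35.2 CPM in wild-type replicates 1 to 5 and 64.1, 54.8, 61.4, 58.6 and 48.7 CPM in Ndrg3 LKO replicates 1 to 5. The groups were again separate, with wild-type replicate 3 lowest and Ndrg3 LKO replicate 1 highest (log2 fold change 0.76 ± 0.12, edgeR adjusted p = 0.000356; 0.84 ± 0.11 with adjusted p = 7.97e-05 without replicate 5).

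*Rars* and *Iars* belong to the multisynthetase complex. *Rars* (chr11:35621883-35648008, minus strand), the arginyl-tRNA synthetase, had 38.6, 42.8, 42.4, 32.8 and 46.8 CPM in wild-type replicates 1 to 5 and 69.1, 63.2, 63.5, 66.4 and 51.6 CPM in Ndrg3 LKO replicates 1 to 5. Every Ndrg3 LKO liver exceeded every wild-type liver (log2 fold change 0.63 ± 0.13, edgeR adjusted p = 0.00191; 0.71 ± 0.12 with adjusted p = 0.000416 without replicate 5). *Iars* (chr13:49777469-49829636, plus strand), for isoleucine, had 37.8, 38.6, 37.3, 42.6 and 39.2 CPM in wild-type replicates 1 to 5 and 60.1, 77.01, 58.9, 50.2 and 40.3 CPM in Ndrg3 LKO replicates 1 to 5. Replicates 1 to 4 of the Ndrg3 LKO livers were above all wild-type livers, and replicate 5 lay within their range (log2 fold change 0.55 ± 0.16, edgeR adjusted p = 0.012; 0.68 ± 0.13 with adjusted p = 0.000946 without it). Its counts are uncertain: 61.3% of its longest transcript had copies of at least 100 bp and 95% identity on another stretch of the mm9 genome. In the same complex *Kars*, for lysine, and *Lars*, for leucine, also rose by 0.43 ± 0.11 and 0.38 ± 0.13 on the log2 scale (edgeR adjusted p = 0.00607 and 0.0355), and by 0.50 and 0.46 without replicate 5 (adjusted p = 0.0017 and 0.012). Of the 8 enzymes of the complex 4 rose and 1 fell, with a median log2 fold change of 0.38, and of the 12 cytosolic enzymes outside it 6 rose and 1 fell, with a median of 0.42. Over all genes 25.6% were higher and 23% lower. Without replicate 5, 6 rose and 1 fell in the complex and 8 rose and 1 fell outside it, against 28% and 26.5% of all genes. Outside the complex, *Gars*, for glycine, rose by 0.54 ± 0.13 (adjusted p = 0.00579), *Wars* by 0.42 ± 0.14 (adjusted p = 0.0293) and *Farsb*, the beta subunit for phenylalanine, by 0.41 ± 0.14 (adjusted p = 0.0286). Without replicate 5 these 3 stood at 0.60, 0.53 and 0.53 (adjusted p = 0.00242, 0.00397 and 0.00288). Some of these calls were lost in other fits. With a replicate block *Lars*, *Wars* and *Farsb* did not pass (edgeR adjusted p = 0.0658, 0.104 and 0.0887), at log2 fold changes of 0.38, 0.42 and 0.41. With no filter on low counts 7 cytosolic genes passed as higher, and *Farsb* was not among them (edgeR adjusted p = 0.0622). Calls were also lost when 1 liver was left out. *Lars* did not pass without any 1 of wild-type replicates 1, 2, 4 and 5 and Ndrg3 LKO replicates 1, 2 and 3 (adjusted p between 0.052 and 0.088). Likewise *Wars* did not pass without wild-type replicate 1, 3 or 4 or Ndrg3 LKO replicate 1 or 3 (0.059 to 0.072), and *Farsb* without wild-type replicate 1 or 4 or Ndrg3 LKO replicate 1 or 4 (0.056 to 0.077).

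**Figure D3:**
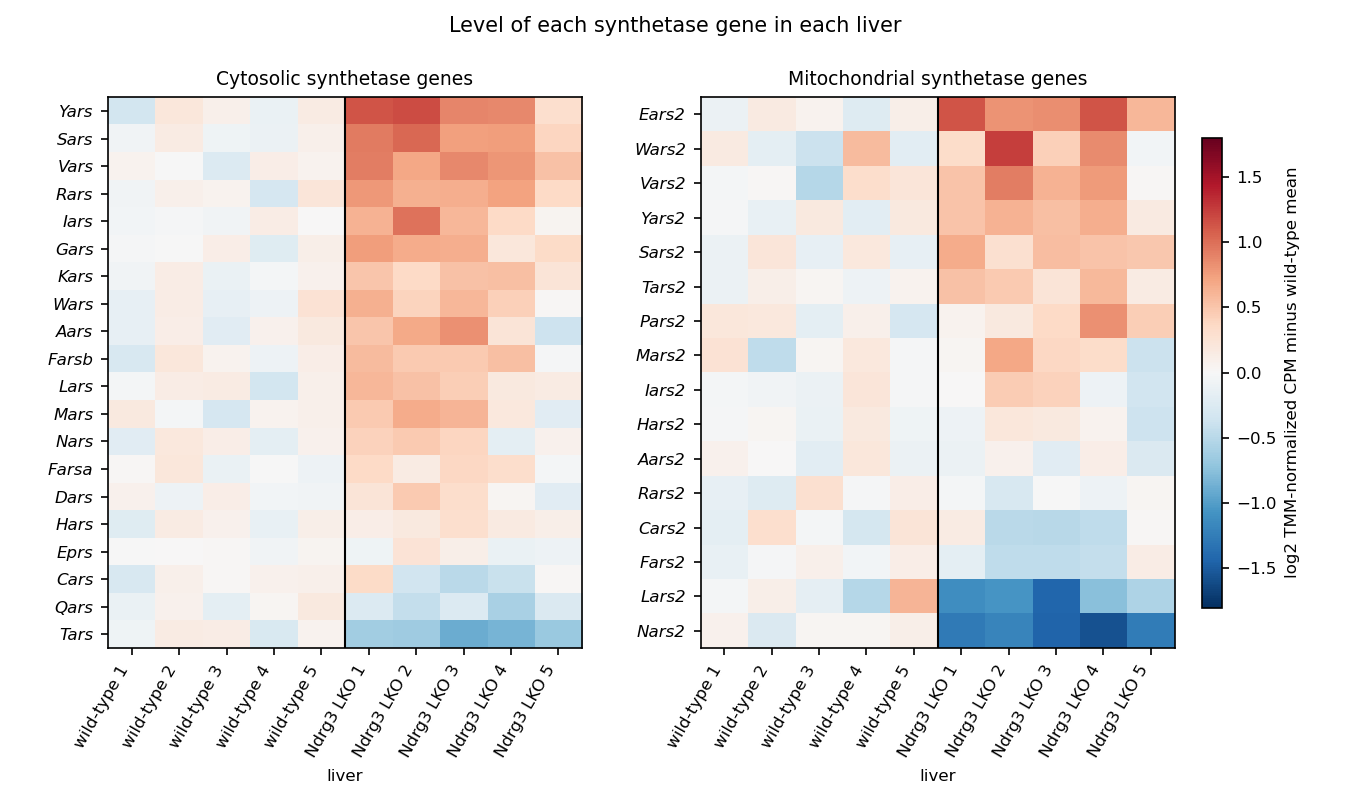
Level of each synthetase gene in each liver, as log2 TMM-normalized CPM minus the wild-type mean of that gene, with cytosolic genes left and mitochondrial genes right, ordered by fold change. Red is above and blue below the wild-type mean; Ndrg3 LKO replicates 1 to 4 carry the strongest colours for most genes, while *Tars*, *Qars*, *Lars2* and *Nars2* are blue in all 5 Ndrg3 LKO livers.

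Among cytosolic genes only *Tars* and *Qars* fell with TMM scaling, *Qars* turning to 0.17 and *Tars* staying at -0.21 with library size alone. *Tars* (chr15:11313418-11329413, minus strand) had 129.6, 151, 149.8, 113 and 143 CPM in wild-type replicates 1 to 5 and 88.6, 87.5, 73.5, 76.1 and 85.7 CPM in Ndrg3 LKO replicates 1 to 5. The groups did not overlap, and Ndrg3 LKO replicate 5 lay among the other Ndrg3 LKO livers (log2 fold change -0.74 ± 0.12, edgeR adjusted p = 0.000559; -0.73 ± 0.13 with adjusted p = 0.000545 without it). *Qars* (chr9:108410336-108418272, plus strand), which encodes the glutaminyl-tRNA synthetase of the complex, had 52.1, 59.9, 50.2, 57.9 and 64.2 CPM in wild-type replicates 1 to 5 and 47.9, 42.00, 47.7, 37.9 and 47.5 CPM in Ndrg3 LKO replicates 1 to 5. These groups did not overlap either, but the gap between the lowest wild-type and the highest Ndrg3 LKO liver was small. The log2 fold change of *Qars* was -0.35 ± 0.12, edgeR adjusted p = 0.0253, and -0.35 ± 0.12 with adjusted p = 0.0287 without replicate 5. Leaving out wild-type replicate 2 or 5 or Ndrg3 LKO replicate 1, 2 or 4 gave adjusted p-values between 0.051 and 0.087.

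The other 8 cytosolic genes did not pass with all 10 livers. Their log2 fold changes were 0.42 for *Aars* (edgeR adjusted p = 0.108), 0.37 for *Mars* (0.0863), 0.24 for *Nars* (0.203), 0.24 for *Farsa* (0.12), 0.19 for *Dars* (0.272), 0.17 for *Hars* (0.213), 0.02 for *Eprs* (0.907) and -0.15 for *Cars* (0.495). *Aars*, for alanine, had 235, 281, 225, 273 and 293 CPM in wild-type replicates 1 to 5 and 368, 418, 461, 304 and 202 CPM in Ndrg3 LKO replicates 1 to 5. Replicate 5 lay below all wild-type livers and replicates 1 to 4 above all of them. Without it *Aars*, *Mars*, *Dars* and *Farsa* passed, with log2 fold changes of 0.59, 0.52, 0.29 and 0.32 (adjusted p = 0.00568, 0.00717, 0.0498 and 0.0289). The counts of *Farsa* are uncertain over 177 bases, or 5.33%, of its transcript, which have 82 copies of at least 95% identity on 20 chromosomes. *Eprs*, the fused glutamyl-prolyl enzyme of the complex, had the lowest coefficient of variation among wild-type livers, and lay between 129 and 167 CPM over all 10 livers.

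Promoters were read for the members to see which letters the genes share ahead of their starts. RefSeq windows of build GRCm38.p6, from 250 bases before to 50 bases after the start, were used for 27 of 36 members, 13 cytosolic and 14 mitochondrial. No window was matched for *Cars*, *Rars*, *Vars*, *Wars* and *Pars2*. *Hars*, *Lars*, *Nars* and *Hars2* were left out because of their genomic position. The shares of all genes given for comparison were computed without this exclusion. The core TGATGNAA, searched on both strands, is contained in the element through which ATF4 and its partners act on genes of amino acid supply. It was found in 5 of 13 cytosolic windows (*Aars*, *Gars*, *Iars*, *Tars* and *Yars*) and in 0 of 14 mitochondrial windows, against 4.51% of 27025 genes. Below are the last 120 bases before and the first 20 bases after the RefSeq start of these genes, 5′ to 3′ along the gene's strand. The core is in capitals as it reads on that strand, so TTGCATCA and TTTCATCA are the core on the other strand. RefSeq starts can differ from the gene positions given elsewhere, which came from GENCODE. The *Yars* window lies inside the position given for that gene. In mm9 the windows lie at chr8:113557622-113557761 (*Aars*, plus), chr6:54987875-54988014 (*Gars*, plus), chr13:49777379-49777518 (*Iars*, plus), chr15:11329394-11329533 (*Tars*, minus) and chr4:128867027-128867166 (*Yars*, plus).
Aars: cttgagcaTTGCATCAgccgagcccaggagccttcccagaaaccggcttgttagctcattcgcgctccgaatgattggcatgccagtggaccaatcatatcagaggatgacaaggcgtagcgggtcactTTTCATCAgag
Gars: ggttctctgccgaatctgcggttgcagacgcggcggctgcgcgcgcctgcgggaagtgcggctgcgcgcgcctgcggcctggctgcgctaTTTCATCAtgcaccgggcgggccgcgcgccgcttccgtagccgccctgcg
Iars: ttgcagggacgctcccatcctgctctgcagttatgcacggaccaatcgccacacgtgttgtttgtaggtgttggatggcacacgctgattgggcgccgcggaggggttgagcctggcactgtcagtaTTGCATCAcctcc
Tars: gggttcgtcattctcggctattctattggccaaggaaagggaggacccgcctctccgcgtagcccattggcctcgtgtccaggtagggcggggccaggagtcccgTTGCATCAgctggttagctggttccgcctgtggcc
Yars: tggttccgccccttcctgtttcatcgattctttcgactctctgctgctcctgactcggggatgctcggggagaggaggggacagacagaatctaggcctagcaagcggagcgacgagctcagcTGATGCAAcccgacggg

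The genes with this core did not move alike. *Gars*, *Iars* and *Yars* rose, *Tars* fell, and *Aars* did not pass with all 10 livers. *Aars* held the core at 2 places, 112 bases before and 9 bases after the start. *Tars* held it 15 bases and *Gars* 30 bases before the start, and in *Iars* and *Yars* it began 7 and 3 bases after. Of the cytosolic genes with the largest increases, the matched window of *Sars* held no such core. The E-box CACGTG, a palindrome that bHLH factors such as MYC recognise, was found in 4 of 13 cytosolic windows (*Aars*, *Farsb*, *Iars* and *Tars*) and 1 of 14 mitochondrial windows (*Ears2*), against 8.09% of all genes. The palindromic NRF1 motif, bound by a factor that acts on respiratory genes, was found in 0 windows of either compartment, against 1.07% of all genes. These matches describe letters only, and no binding was measured.

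Among the mitochondrial genes, *Ears2* had the largest increase. *Ears2* (chr7:129180727-129210777, minus strand) had 9.32, 11.2, 10.5, 8.59 and 10.8 CPM in wild-type replicates 1 to 5 and 21.9, 17.5, 17.97, 22.1 and 15.1 CPM in Ndrg3 LKO replicates 1 to 5. Every Ndrg3 LKO liver lay above every wild-type liver (log2 fold change 0.91 ± 0.14, edgeR adjusted p = 0.000414; 1.003 ± 0.13 with adjusted p = 8.30e-05 without replicate 5). The mitochondrial valyl-tRNA synthetase gene *Vars2* (chr17:35792579-35804537, minus strand) had 18.5, 19.2, 13.3, 23.6 and 22.02 CPM in wild-type replicates 1 to 5 and 26.9, 35.8, 29.3, 32.2 and 19.3 CPM in Ndrg3 LKO replicates 1 to 5. Its groups overlapped through replicate 5, and wild-type replicate 3 was the lowest of the 10 livers (log2 fold change 0.57 ± 0.19, edgeR adjusted p = 0.025; 0.71 ± 0.16 with adjusted p = 0.00329 without replicate 5). The call was lost without wild-type replicate 1, 2 or 3 or Ndrg3 LKO replicate 4 (adjusted p between 0.051 and 0.058). *Yars2*, for tyrosine, *Sars2*, for serine, and *Tars2*, for threonine, rose by 0.50 ± 0.13, 0.49 ± 0.13 and 0.40 ± 0.12 on the log2 scale (edgeR adjusted p = 0.00757, 0.00937 and 0.0147). Without replicate 5 the values were 0.60, 0.52 and 0.49 (adjusted p = 0.00109, 0.00762 and 0.0034). With a replicate block *Tars2* and *Vars2* did not pass (edgeR adjusted p = 0.0657 and 0.0532), at log2 fold changes of 0.39 and 0.57.

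*Nars2* and *Lars2* fell. *Nars2* (chr7:104100015-104213271, plus strand), the mitochondrial asparaginyl-tRNA synthetase, had 26.5, 21.00, 25.8, 25.7 and 26.96 CPM in wild-type replicates 1 to 5 and 10.3, 11.1, 9.27, 8.49 and 10.5 CPM in Ndrg3 LKO replicates 1 to 5. The Ndrg3 LKO livers formed a narrow band far below the wild-type livers, and replicate 5 lay inside it (log2 fold change -1.34 ± 0.12, edgeR adjusted p = 1.50e-05; -1.34 ± 0.13 with adjusted p = 7.55e-06 without it). *Nars2* had the largest absolute log2 fold change of the 36 genes and passed in all 18 alternatives tried. *Lars2* (chr9:123276058-123371782, plus strand) had 3409, 3760.2, 3119, 2449.9 and 5334 CPM in wild-type replicates 1 to 5 and 1607, 1667, 1296, 2071 and 2368 CPM in Ndrg3 LKO replicates 1 to 5. The highest Ndrg3 LKO liver was replicate 5, just below the lowest wild-type liver (log2 fold change -1.004 ± 0.24, edgeR adjusted p = 0.00505; -1.10 ± 0.23 with adjusted p = 0.00178 without it). With quantile normalization in limma, however, the log2 fold change of *Lars2* was -0.16 (adjusted p = 0.54). The counts of *Lars2* are uncertain, because 398 of the 3881 bases of its transcript, or 10.3%, have copies of at least 95% identity at 5 other places on 4 chromosomes. *Rn45s*, the ribosomal RNA precursor listed in the same tables, had 6330.5, 14546, 12317, 4042 and 19402 CPM in wild-type replicates 1 to 5 and 7109, 3778, 2091, 7475 and 14034 CPM in Ndrg3 LKO replicates 1 to 5. Within the wild-type group, replicate 5 was highest and replicate 4 lowest for both genes. Within the Ndrg3 LKO group, replicate 5 was highest and replicate 3 lowest for both. Whether reads of other loci contribute to *Lars2* was not tested.

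The other 9 mitochondrial genes did not pass. *Wars2* (0.59, edgeR adjusted p = 0.0817), *Pars2* (0.38, 0.146), *Mars2* (0.24, 0.398, and -0.030 with quantile normalization), *Iars2* (0.12, 0.565) and *Hars2* (0.01, 0.962) had log2 fold changes above 0. Those of *Fars2* (-0.26, 0.127), *Cars2* (-0.25, 0.27), *Rars2* (-0.08, 0.632) and *Aars2* (-0.08, 0.641) were below 0, and above 0 with scaling to library size. Without Ndrg3 LKO replicate 5, *Wars2* passed as higher (0.74, adjusted p = 0.0229) and *Fars2* as lower (-0.35, adjusted p = 0.0196). Of the transcript of *Wars2*, 141 bases (3.20%) have such copies at 2 other places. *Pars2*, *Mars2* and *Wars2* had the fewest reads, down to 24, 35 and 53 counts in a liver, with standard errors of 0.21, 0.23 and 0.26. That of *Lars2*, which had far more reads, was 0.24.

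For 13 amino acids the tables hold 1 cytosolic and 1 mitochondrial gene, and the ratio of their counts within a liver does not depend on the scaling of libraries. The log2 ratio was higher in Ndrg3 LKO livers for 5 pairs and lower for 1 (2-sided exact permutation tests, unadjusted p under 0.05), of 13 pairs tested, and 5 of the 13 did not overlap between groups. Among single genes 48.6% passed and 31.5% did not overlap, and no share was computed for pairs of other genes, so the count of pairs is not read as particular to them. The *Nars* to *Nars2* ratio was 4.10, 6.83, 5.25, 4.33 and 4.89 in wild-type replicates 1 to 5 and 16.1, 15.7, 17.7, 13.1 and 12.5 in Ndrg3 LKO replicates 1 to 5. The groups were far apart, with a log2 ratio of 2.32 ± 0.29 (SD, n = 5) in wild-type and 3.90 ± 0.21 in Ndrg3 LKO livers (exact permutation p = 0.00794). The *Lars* to *Lars2* ratio was 0.0108, 0.0110, 0.0134, 0.0123 and 0.00757 in wild-type replicates 1 to 5 and 0.0356, 0.0326, 0.0398, 0.0206 and 0.0176 in Ndrg3 LKO replicates 1 to 5. It rose by 1.36 on the log2 scale without overlap (exact permutation p = 0.00794), subject to the uncertainty about *Lars2*. In the opposite direction, the *Tars* to *Tars2* ratio was 5.82, 5.88, 6.11, 5.07 and 5.74 in wild-type replicates 1 to 5 and 2.57, 2.63, 2.62, 2.12 and 3.25 in Ndrg3 LKO replicates 1 to 5. All Ndrg3 LKO livers lay below all wild-type livers, and the log2 ratio fell by 1.13 (exact permutation p = 0.00794, the smallest possible).

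*Rars* to *Rars2* (0.71) and *Iars* to *Iars2* (0.43) were also higher with no overlap between groups (exact permutation p = 0.00794 for each). The *Iars* to *Iars2* ratio is subject to the uncertainty about the counts of *Iars*. *Yars* to *Yars2* was higher by 0.37 with overlap (exact permutation p = 0.0317). The *Yars* pair did not pass without any 1 of wild-type replicates 1, 3 and 5 and Ndrg3 LKO replicates 1, 2 and 3 (exact permutation p between 0.056 and 0.071). The other 7 pairs differed by -0.14 (*Wars* to *Wars2*) to 0.45 (*Aars* to *Aars2*) and did not pass. Without Ndrg3 LKO replicate 5 the number of pairs past the threshold was 8, with *Aars* and *Sars* added. Over whole compartments, the mean log2(CPM + 1) of the cytosolic genes exceeded that of the mitochondrial genes by 1.38 ± 0.080 (SD, n = 5) in wild-type and 1.62 ± 0.14 in Ndrg3 LKO livers. The groups overlapped, and the difference between them was 0.25, 0.28 without Ndrg3 LKO replicate 5 and 0.18 without *Lars2*. This score over all members was not tested.

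**Figure D4:**
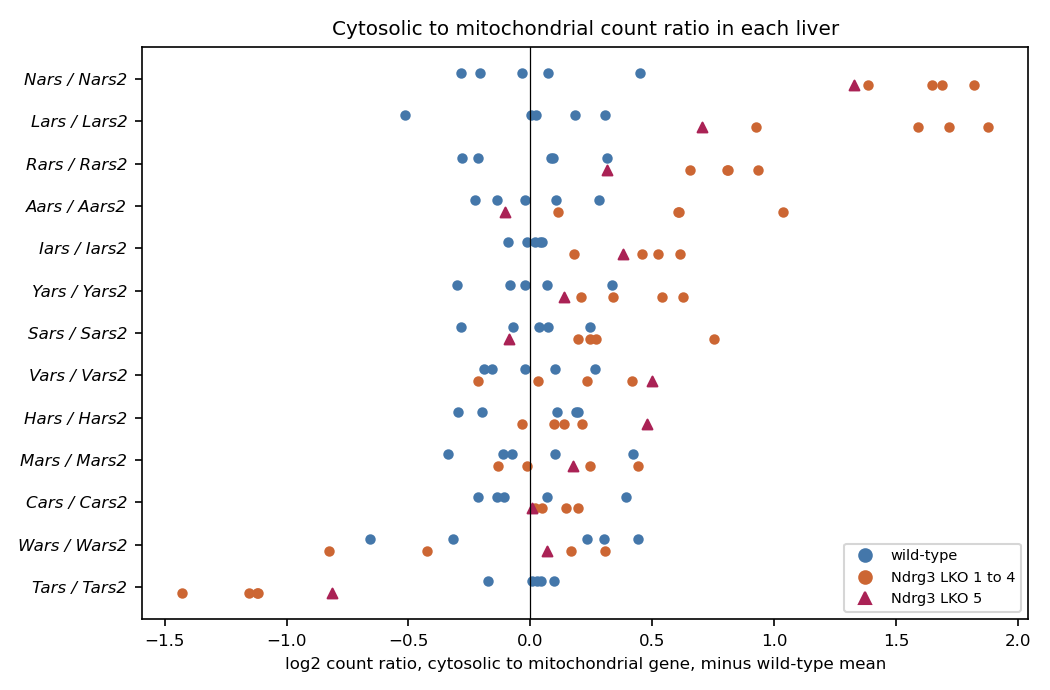
Log2 count ratio of the cytosolic to the mitochondrial gene for 13 amino acids, minus the wild-type mean, 1 point per liver (blue, wild-type; orange, Ndrg3 LKO replicates 1 to 4; triangle, replicate 5). The *Nars*, *Lars*, *Rars* and *Iars* pairs lie right of all wild-type points, the *Tars* pair lies left of them by 1.13 on average, and the other pairs overlap.

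The partners of the synthetases were described from lists of related genes. The counts below stand against 25.6% of all genes higher and 23% lower, or 28% and 26.5% without Ndrg3 LKO replicate 5, and are those with TMM scaling unless another is named. All 3 scaffold genes of the multisynthetase complex rose, also without that liver. *Aimp2* stood at 13.3 ± 0.742 CPM (SD, n = 5) in wild-type and 29.9 ± 5.07 CPM (SD, n = 5) in Ndrg3 LKO livers, with no overlap (log2 fold change 1.16 ± 0.14, edgeR adjusted p = 6.39e-05; 1.27 ± 0.11 with adjusted p = 4.23e-06 without replicate 5). *Eef1e1* followed with a log2 fold change of 0.88 ± 0.17, adjusted p = 0.00164, and the third, *Aimp1*, named after its value had been seen, with 0.66 ± 0.14, adjusted p = 0.00228 (0.995 and 0.73 without replicate 5). Of 4 genes for amidation and formylation of mitochondrial aminoacyl-tRNAs, 1 rose and 1 fell, with and without replicate 5, and both are subunits of the amidotransferase that acts after *Ears2* on the glutamine tRNA. *Qrsl1* rose from 3.93 ± 0.149 to 11.5 ± 2.60 CPM (log2 fold change 1.55 ± 0.18, edgeR adjusted p = 6.03e-05; 1.70 ± 0.13 with adjusted p = 1.38e-06 without replicate 5). *Pet112*, the symbol used here for Gatb, fell from 42.1 ± 5.28 to 25.8 ± 5.51 CPM (log2 fold change -0.71 ± 0.16, edgeR adjusted p = 0.00306; -0.80 ± 0.14 with adjusted p = 0.000466 without replicate 5), and did not pass with scaling to library size (-0.21, adjusted p = 0.174). Their groups did not overlap. The remaining subunit gene, *Gatc*, had a log2 fold change of -0.03 (adjusted p = 0.872).

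*Tarsl2*, a second cytosolic threonyl-tRNA synthetase, fell (log2 fold change -0.997 ± 0.20, adjusted p = 0.00167, and -1.13 without replicate 5), as *Tars* did, while *Tars2* rose. Of 10 genes of tRNA maturation and export 3 rose and 1 fell, and 4 rose and 2 fell without replicate 5. Among them were the splicing endonuclease subunit *Tsen15* (0.92 ± 0.20, adjusted p = 0.00279, and 0.98 without replicate 5) and the RNA kinase *Clp1* (-0.85 ± 0.20, adjusted p = 0.0041, and -1.004 without replicate 5), which did not pass with scaling to library size (-0.36, adjusted p = 0.0621). Of 10 genes that modify or process mitochondrial tRNAs 4 rose and 3 fell (5 and 3 without replicate 5). Of the 3, *Trit1* changed sign with scaling to library size and *Trmu* did not pass (-0.19, adjusted p = 0.318). *Cdk5rap1*, which modifies mitochondrial tRNAs next to the anticodon, rose (0.92 ± 0.18, adjusted p = 0.00175, and 0.99 without replicate 5), and *Hsd17b10*, a subunit of mitochondrial RNase P that also breaks down isoleucine, fell (-1.41 ± 0.26, adjusted p = 0.00102, and -1.67 without replicate 5). Of 5 cytosolic elongation factors 1, *Eef1g*, rose with TMM scaling (0.80 ± 0.16, adjusted p = 0.00201, and 0.88 without replicate 5), and 0 of the 4 mitochondrial ones passed with edgeR and TMM scaling, with or without replicate 5 (1 at an unadjusted p under 0.05 in all 10 livers), with log2 fold changes between -0.30 and 0.18. With scaling to library size, where 51.9% of all genes were called higher and 9.01% lower, the counts were 3 higher and 0 lower for the scaffold, 2 and 0 for amidation and formylation, 5 and 0 for maturation, 6 and 1 for mitochondrial tRNA modification, 3 and 0 for cytosolic and 2 and 0 for mitochondrial elongation. Medians of these lists with TMM scaling are compared with 0.03 for all genes: 0.88 for the scaffold, -0.20 for amidation and formylation, 0.10 for maturation, 0.24 for mitochondrial tRNA modification, 0.37 for cytosolic and -0.17 for mitochondrial elongation.

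**Figure D5:**
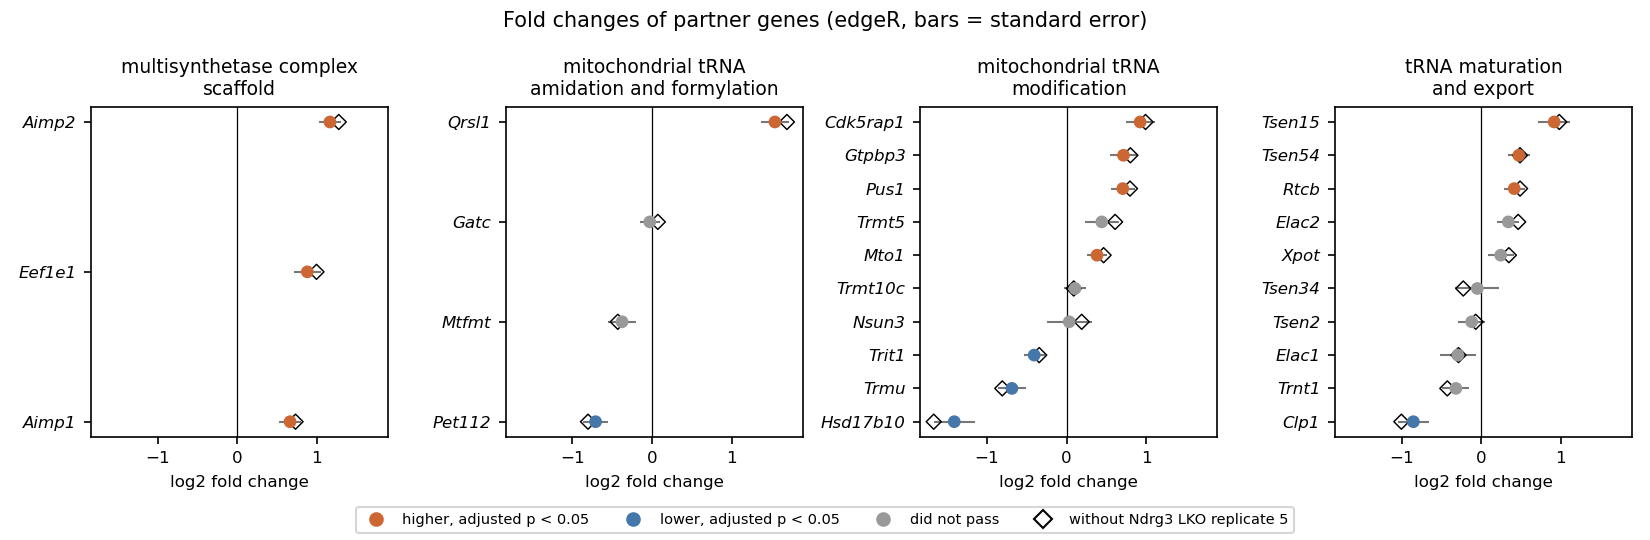
Log2 fold changes (Ndrg3 LKO against wild-type, bars are standard errors, n = 5 per group) of genes in 4 lists, with open diamonds for the fit without Ndrg3 LKO replicate 5. The 3 scaffold genes lie right of 0, and the amidotransferase genes *Qrsl1* (1.55) and *Pet112* (-0.71) lie on opposite sides.

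Of the genes that ATF4 and the integrated stress response are known to raise, 15 of 16 listed were tested. Of these, *Asns*, *Psat1*, *Phgdh*, *Nupr1* and *Slc7a5* reached the filter on low counts through the Ndrg3 LKO livers alone and *Chac1* through the wild-type livers alone. The filter thus selected these genes through the group where they are high, so no count or median is given for the list, and levels of such genes are given without a test. *Psat1* and *Phgdh*, enzymes of serine synthesis, were near 0 in wild-type livers. *Psat1* had 0.449, 0.684, 0.390, 0.505 and 1.37 CPM in wild-type replicates 1 to 5 and 35.1, 46.1, 38.1, 18.6 and 6.50 CPM in Ndrg3 LKO replicates 1 to 5, replicate 5 being the lowest of the Ndrg3 LKO livers. *Phgdh* stood at 0.219 ± 0.118 CPM (SD, n = 5) in wild-type and 8.03 ± 2.73 CPM (SD, n = 5) in Ndrg3 LKO livers, on as few as 2 counts in a wild-type liver. *Asns*, the asparagine synthetase, was named after its value had been seen, because it makes the substrate of *Nars* and *Nars2*. It had 1.07, 2.002, 3.45, 2.99 and 3.99 CPM in wild-type replicates 1 to 5 and 56.9, 51.9, 62.96, 27.2 and 31.9 CPM in Ndrg3 LKO replicates 1 to 5, with every Ndrg3 LKO liver above every wild-type liver. *Chac1*, which degrades glutathione, stood at 4.57 ± 2.65 CPM (SD, n = 5) in wild-type and 0.923 ± 0.727 CPM (SD, n = 5) in Ndrg3 LKO livers. The other genes of the list that passed, also named after their values had been seen, went in both directions. *Atf3* (1.72 ± 0.35, adjusted p = 0.0021, and 1.87 without replicate 5), *Mthfd2* (1.51 ± 0.40, adjusted p = 0.00899, and 1.71 without replicate 5) and *Slc3a2* (1.01 ± 0.13, adjusted p = 0.000101, and 1.06 without replicate 5) rose. *Shmt2*, the mitochondrial serine hydroxymethyltransferase (-0.70 ± 0.18, adjusted p = 0.00775, and -0.76 without replicate 5), and *Ppp1r15a*, a phosphatase subunit acting on eIF2 (-0.67 ± 0.20, adjusted p = 0.0147, and -0.82 without replicate 5), fell, and neither passed with scaling to library size (-0.20 and -0.19, adjusted p = 0.328 and 0.336). *Atf4* itself, at -0.40 (adjusted p = 0.121), did not pass with all 10 livers, passed as lower without Ndrg3 LKO replicate 5 (-0.51 ± 0.19 with adjusted p = 0.038), and had 0.09 with scaling to library size.

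*Wars* is a known target of interferon-gamma. Of 11 interferon-gamma targets tested, *Cxcl10* reached the filter through the Ndrg3 LKO livers alone, and of the other 10, 4 rose and 1 fell, with and without replicate 5, a share near the 48.6% of all genes that passed (7 and 1 with scaling to library size). They included the GTPase genes *Igtp* (1.54 ± 0.36, adjusted p = 0.00439, and 1.66 without replicate 5) and *Irgm1* (-0.97 ± 0.17, adjusted p = 0.000917, and -1.03 without replicate 5).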

How the data were processed

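Total RNA of 10 livers was sequenced as stranded mRNA libraries, with paired reads of 100 bases. The authors mapped the reads to mm9 and counted them with STAR; the version is 2.7.3a in the submitters' processing notes and differs in the methods. The deposited values are raw counts per gene symbol, whole numbers whose totals differ between livers, although their files are named for CPM. The annotation and the strand setting of the counting are not given in the sources used here. *Aars*, *Cars*, *Farsb*, *Hars*, *Lars*, *Mars*, *Sars*, *Vars*, *Yars*, *Ears2*, *Hars2*, *Iars2* and *Nars2* overlap an annotated gene on the opposite strand, and their values are uncertain to that extent.

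The filter kept genes that reached 1 CPM in 5 or more livers, and these were tested with edgeR 4.0.16 (TMM, quasi-likelihood test, Benjamini-Hochberg adjustment over all genes tested, threshold 0.05) in R 4.3.3, with limma 3.58.1 and DESeq2 1.42.0 as alternatives. Standard errors are the log2 fold change divided by the root of F. Pair ratios had 0.5 added to both counts. Exon lengths and positions came from GENCODE on NCBIM37 (mm9), and copies were searched with BLAST 2.17.0. The fits were also run on simulated counts, and no result given here rests on that run. Members and lists were chosen with earlier results of these data known. Values in every liver are given for *Ndrg3*, the 6 cytosolic and 4 mitochondrial genes with the largest absolute fold change among those that passed, members that passed against the direction of most in their compartment, and the 3 pairs that changed most; 2 passing genes are named per list, except that 1 gene, and the count and median of its list, are not reported here, and the values of *Aars* were added after they had been seen. Each of the 20 within-group liver pairs exceeded sampling noise in its differences (chi-square per degree of freedom 27.2 to 543). Alternatives were other scalings, filters and tools, a replicate block and each liver left out in turn; *Lars2* was left out of the level difference after the data had been seen.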

Additional observations from a re-analysis of the deposited data

Results flagged for a closer look

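Dixon's criterion for a value far from the other 4 of its group was applied to 156 groups of 5 livers. These covered the 36 synthetase genes, *Ndrg3*, the 13 pair ratios, *Aimp1*, *Asns*, *Rn45s* and the summed marker lists. Each pathway list gave at most its 2 passing genes with the largest absolute fold change. Other genes named from these lists were not screened. The criterion marked 6 of the 156 groups, or 3.85%, where chance alone marks about 1 in 20. *Cars* had 20.04 CPM in wild-type replicate 1 against 24.9 to 26.1 CPM in the other wild-type livers. *Farsb* had 30.9 CPM in Ndrg3 LKO replicate 5 against 43.3 to 46.5 CPM in the other Ndrg3 LKO livers. *Iars2* had 68.7 CPM in wild-type replicate 4 against 54.9 to 58.4 CPM in the others. *Nars2* had 21.0 CPM in wild-type replicate 2 against 25.7 to 27.0 CPM in the others, and every Ndrg3 LKO liver lay below that value. The summed hepatocyte markers stood at 158586 CPM in Ndrg3 LKO replicate 5 against 40038 to 48229 CPM in the other Ndrg3 LKO livers, and the summed neutrophil markers at 14.7 CPM in the same liver against 1.33 to 5.15 CPM.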

How the results depend on the processing

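Over the leave-one-out fits, the number of genes that passed ranged from 4431 to 5962, that of cytosolic synthetase genes from 8 to 16, that of mitochondrial ones from 6 to 9 and that of pairs from 5 to 8, the highest of each without Ndrg3 LKO replicate 5; the level difference between compartments ranged from 0.22 to 0.29. With scaling to library size 13 mitochondrial genes passed, and these genes changed sign: *Cars* (0.36), *Qars* (0.17), *Aars2* (0.46), *Cars2* (0.26), *Fars2* (0.24) and *Rars2* (0.44). The split over all genes was then 5821 higher and 1010 lower, against 2865 and 2578 with TMM. Genes near 0 also changed sign, namely *Eprs* (-0.018 with no filter; -0.027 to 0.081 leaving out single livers), *Hars2* (-0.027 with no filter, -0.0025 with limma, -0.0023 with the replicate block; -0.026 to 0.11 leaving out single livers), *Mars2* (-0.030 with quantile normalization) and the *Wars* to *Wars2* log2 ratio (-0.31 to 0.031 leaving out single livers). The causes were not tested.

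Of the other alternative values of single genes, 573 kept their direction and side of the threshold, 37 lost the call and 20 gained one; of the pairs these were 134, 6 and 2. The replicate numbers did not pair the livers: 0 of 10 livers correlated best with its own number, and same-number deviations had a mean correlation of -0.22. Under a replicate block 4412 genes passed, among them 8 cytosolic and 5 mitochondrial synthetase genes. The calls of *Farsb*, *Lars*, *Wars*, *Qars*, *Tars2* and *Vars2* were lost there (edgeR adjusted p between 0.0532 and 0.104). That of *Qars* stood at -0.35 with adjusted p = 0.0877. The block was not run for pair ratios, because an exact sign test over 5 pairs of livers cannot reach the threshold. *Pars2*, *Mars2* and *Wars2* had under 100 counts in a liver.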
